A study of Mus musculus with 2 samples.

Results

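The miR-101 family of the mouse was followed through small RNA libraries of heart tissue. Its members were taken by gene symbol in GENCODE release M21, which gives Mir101a, Mir101b and Mir101c, so 3 of the 2202 microRNA genes were members. The symbol alone decided membership. The choice of this family, of the gene lists and of the tests was made with earlier results of these data known. The tissue was the heart of female B6CASTF1/J mice, 2 months old and supplied by The Jackson Laboratory, and both libraries form a single group with no contrasting condition. B6CASTF1/J animals are the first-generation cross of C57BL/6J and CAST/EiJ. The labels call the libraries biological replicates 1 and 2 and name different females, but both carry the same donor label. That 2 animals were sampled is therefore a reading of the labels, and every p-value given here measures whether 2 libraries differ beyond counting error, a spread that may be technical.

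MicroRNAs are short RNAs cut from a folded hairpin, and they pair with messenger RNAs mainly through bases 2 to 8, the seed. miR-101 is an old and well conserved microRNA, best known for repressing Ezh2, the methyltransferase subunit of Polycomb repressive complex 2 that marks silent chromatin, and it also represses the transcription factor gene Fos. In the rat heart it has been described as a brake on fibroblast growth and scar formation after infarction.

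The mature sequences of the family, from RefSeq on GRCm38.p6, are shown because their near identity decides which reads can be given to which gene. Capitals mark the seed, bases 2 to 8 counted from the 5′ end.
miR-101a-3p: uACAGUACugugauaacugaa
miR-101b-3p: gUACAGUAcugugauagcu
miR-101c: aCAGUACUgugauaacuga
miR-101a-5p: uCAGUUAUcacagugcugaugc
miR-101b-5p: uCGGUUAUcaugguaccgaugcu
As annotated, the 3 products of the 3′ type have 3 different seeds, since each starts at another base of the same run. The seed of miR-101a-3p, bases 2 to 8 there, lies at bases 3 to 9 of miR-101b-3p and at bases 1 to 7 of miR-101c. No other RefSeq mature sequence of the mouse shares a full seed with any of the 5 products. The deposited counts are per hairpin, so they hold neither the start of a read nor the arm it came from.

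The hairpins of the 2 members with counts are shown with their annotated mature arms in capitals, the 5p arm first.
Mir101a: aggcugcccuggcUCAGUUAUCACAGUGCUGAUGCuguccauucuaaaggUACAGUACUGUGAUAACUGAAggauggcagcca
Mir101b: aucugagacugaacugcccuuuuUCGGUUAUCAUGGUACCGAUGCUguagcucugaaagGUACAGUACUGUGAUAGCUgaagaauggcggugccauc
Over its 21 bases, miR-101a-3p matches the Mir101b hairpin at all but 1 position, A16G, counted from the 5′ end of miR-101a-3p with the Mir101b base second. The 5p arms are less alike, and miR-101a-5p differs from Mir101b at 5 of its 22 bases. The longest exact stretch in common between the Mir101a and Mir101b hairpins is 20 bases, aaagguacaguacugugaua, and it ends just before the differing base. Among all 2202 annotated hairpins, a fragment starting at the 5′ end is found in a single hairpin from 16 bases on for miR-101a-3p and from 17 bases on for miR-101b-3p. Shorter fragments, and reads from the shared stretch, belong equally to both genes, so the split between Mir101a and Mir101b is uncertain by whatever share of reads was of that kind.

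Mir101c stands apart in sequence. All 19 bases of miR-101c lie within miR-101a-3p, as its bases 2 to 20, so a read of exactly this sequence maps to both loci. The full miR-101a-3p differs from the Mir101c hairpin only at its ends, by U1C and A21U, counted from the 5′ end of miR-101a-3p with the Mir101c base second. Reads with more than 1 place in the genome entered no gene's count, and they made up 42.7% of the reads of replicate 2 and 49.5% of those of replicate 1. The count of Mir101c is thus silent on how much of its mature RNA was present. Reads lying within the 19 bases of miR-101c are lost from the Mir101a count too.

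The 3 genes lie on different chromosomes of mm10, and none has another annotated microRNA gene within 10 kb. Mir101a lies at chr4:101346945-101347027 on the minus strand, inside an exon of E130102H24Rik, a long intergenic noncoding RNA of the same strand (that exon spans 101346531 to 101347103). Mir101b lies at chr19:29135279-29135375 on the plus strand, in an intron of Rcl1, a gene for a protein of ribosome assembly that is read on the same strand; the nearest Rcl1 exons lie 776 bases before and 7767 bases after it. Mir101c lies at chr9:3038669-3038743 on the minus strand and overlaps no other annotated gene. No microRNA gene overlaps a member on either strand.

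The predicted fold also separates Mir101c from the others. RNAfold gave a minimum free energy of -47.0 kcal/mol for the 83 bases of Mir101a, -39.6 kcal/mol for the 97 bases of Mir101b and -16.1 kcal/mol for the 75 bases of Mir101c. Per base this was -0.566, -0.408 and -0.215 kcal/mol, beside a median of -0.369 over all 2202 hairpins and -0.435 over the 306 detected ones. In the predicted structures 20 of the 21 bases of miR-101a-3p and 18 of the 19 bases of miR-101b-3p were paired, against 11 of the 19 bases of miR-101c.

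Replicate 2 held 7995058 reads, 2770301 of them on a single microRNA gene and its own strand, and replicate 1 held 8069273 reads with 2424441 so counted. Levels are given as CPM, counts scaled so that the own-strand reads of a library sum to 1000000. Counts were not divided by length, since each read was taken to stand for a single small RNA. A gene with at least 10 counts in both libraries was called detected, which held for 306 of 2202. The heart muscle microRNAs Mir208a, Mir208b and Mir499, encoded in myosin genes, were all 3 detected.

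Mir101b was the member with the most counts in both libraries. It had 433 counts in replicate 2 and 764 in replicate 1, or 156 CPM (95% exact Clopper-Pearson interval 142 to 172) and 315 CPM (293 to 338). Its mean was 236 ± 112 CPM (SD, n = 2). Replicate 2 was the low library, and the intervals did not overlap. In whole tissue, fewer cells of a type and less RNA per cell cannot be told apart. By mean level it ranked 103 among the 306 detected genes, above 66.3% of them. In the libraries alone it ranked 119 in replicate 2 and 99 in replicate 1 among all genes. Ranks of both detected members, and the family share, are places among reads with a single place in the genome. Genes with near copies can stand too low by that counting. Mir133a-1 and Mir133a-2, which share an exact stretch with each other and with Mir133b, had means of 3.17 and 2.66 CPM. How many of their reads were left out was not tested.

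Mir101a had 130 counts in replicate 2 and 381 in replicate 1. Its level was 46.9 CPM (39.2 to 55.7) in replicate 2 and 157 CPM (142 to 174) in replicate 1, with a mean of 102 ± 77.9 CPM (SD, n = 2). Replicate 2 was again the low library. The gene ranked 144 among the detected genes by mean, above 52.9% of them, and 172 in replicate 2 and 131 in replicate 1 among all genes. The median detected gene had a mean of 80.1 CPM, and the means of both detected members lay above it. For Mir101a this did not hold in each library. The median of the detected genes was 66.8 CPM in replicate 2, above the 46.9 CPM of Mir101a there. In replicate 1 that median was 82.7 CPM, below the 157 CPM of Mir101a.

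Mir101c had 0 counts on either strand in both libraries, which allows a level of up to 1.08 CPM in replicate 2 and 1.24 CPM in replicate 1 for reads that map there alone (3 counts per library, counting error only). Against that limit Mir101b was at least 144-fold higher in replicate 2 and at least 255-fold higher in replicate 1, and Mir101a at least 43.3-fold and 127-fold higher. These bounds concern uniquely mapped reads, not the mature RNA, for the reason given with the sequences.

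**Figure D1:**
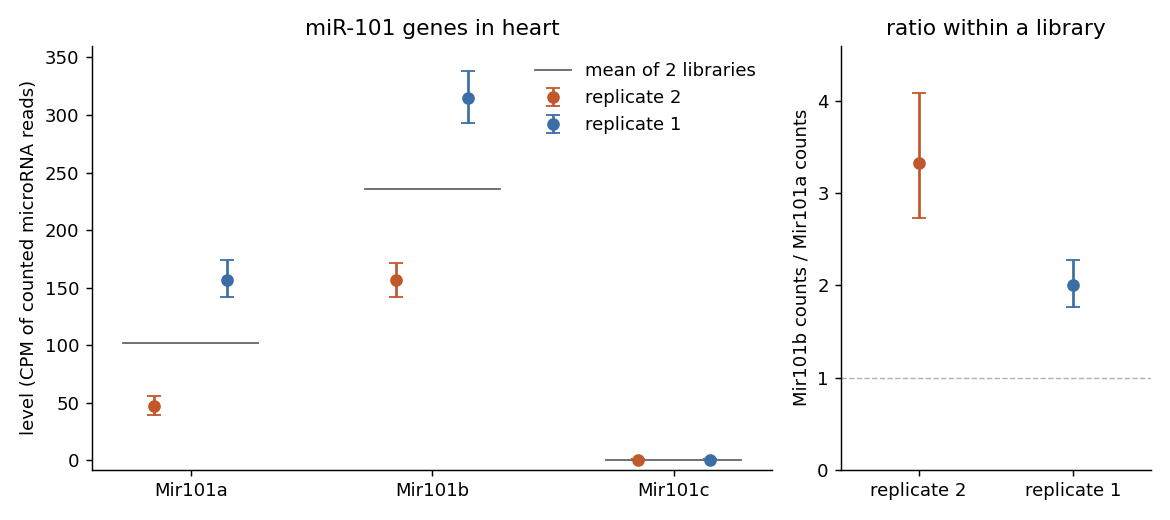
Left, level in CPM of counted microRNA reads for each gene in replicate 2 and replicate 1, with 95% exact Clopper-Pearson intervals as bars and the mean of both libraries as a grey line; right, Mir101b counts divided by Mir101a counts in each library, with exact intervals and a dashed line at equal counts. Both detected genes are lower in replicate 2, Mir101c lies at 0, and the ratio is 3.33 in replicate 2 and 2.01 in replicate 1.

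Together the family held 563 counts in replicate 2 and 1145 in replicate 1. This was 0.0203% of counts in replicate 2 (0.0187 to 0.0221) and 0.0472% in replicate 1 (0.0445 to 0.050), with a mean of 0.0338% ± 0.0190 (SD, n = 2). Mir101b made up 76.9% of the family's counts in replicate 2 and 66.7% in replicate 1, shares that reads lost from Mir101a to its overlap with Mir101c can raise.

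The counts came from the annotated strand. All 511 reads of Mir101a and all 1197 of Mir101b over both libraries were on the gene's own strand, and 0 were on the opposite one. The lower end of the exact interval for the own-strand share was 99.3% for Mir101a and 99.7% for Mir101b. Among all detected genes, 282 of 306 had no opposite-strand count.

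**Figure D2:**
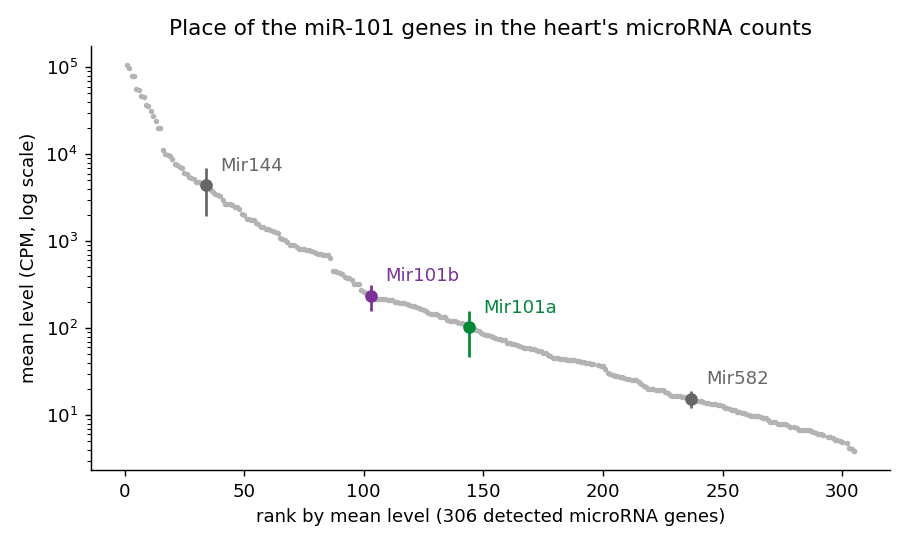
Mean level in CPM (log scale) of the 306 detected microRNA genes in order of that mean; coloured points are the miR-101 genes, dark grey points are Mir144 and Mir582, which share seed bases with them, and vertical lines join the values of both libraries. Mir101b stands at rank 103 and Mir101a at rank 144, between Mir144 at rank 34 and Mir582 at rank 237. Only reads with a single place in the genome are counted, so genes with near copies can stand too low.

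Genes with part of a miR-101 seed were looked up among all RefSeq mature sequences. Bases 2 to 7 of miR-101a-3p recur in miR-144-3p and those of miR-101b-3p in miR-582-5p, printed here with bases 2 to 8 in capitals; in both pairs base 8 differs.
miR-144-3p: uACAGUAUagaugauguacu
miR-582-5p: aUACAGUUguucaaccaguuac
Mir144, a red cell microRNA of the cluster with Mir451a, had 6858 CPM in replicate 2 and 1963 CPM in replicate 1. Its counts exceeded those of the whole miR-101 family 33.7-fold in replicate 2 and 4.16-fold in replicate 1. These are counts of the whole Mir144 hairpin, so the amount of miR-144-3p itself is not given. Mir144 was higher in replicate 2, where both detected miR-101 genes were lower. Mir582 had 33 counts in replicate 2 and 46 in replicate 1, a level of 11.9 CPM in replicate 2 and 18.97 CPM in replicate 1, and did not pass the test between the libraries (binomial test with Benjamini-Hochberg adjustment, adjusted p = 0.068).

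The comparison of both libraries asked how far the levels of the family held from 1 sample to the other. For each detected gene the split of its counts was set against the split of the library totals (exact binomial test, two-sided), and p-values were adjusted over 306 genes by the Benjamini-Hochberg method. Mir101a was lower in replicate 2 by 3.35-fold (exact interval 2.74 to 4.12), a log2 ratio of replicate 2 over replicate 1 of -1.74 (adjusted p = 7.9e-37). Mir101b was lower by 2.02-fold (1.79 to 2.27), a log2 ratio of -1.01 (adjusted p = 5.4e-32). Mir101c did not pass the filter on counts and has no fold.

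Differences of this kind were common between these libraries. Of the 306 genes 61.1% passed the test, 41.5% of all genes lower and 19.6% higher in replicate 2, and 36.6% both passed and differed by at least 1.5-fold, 25.5% lower and 11.1% higher. Both detected members fell in the lower class at 1.5-fold, and a class that takes in 25.5% of genes says little about 2 of them. The log2 ratio had a median of -0.19 and an SD of 0.83 over all genes, with quartiles at -0.64 and 0.23. Mir101a had the 10th lowest log2 ratio of the 306 and Mir101b the 40th lowest.

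**Figure D3:**
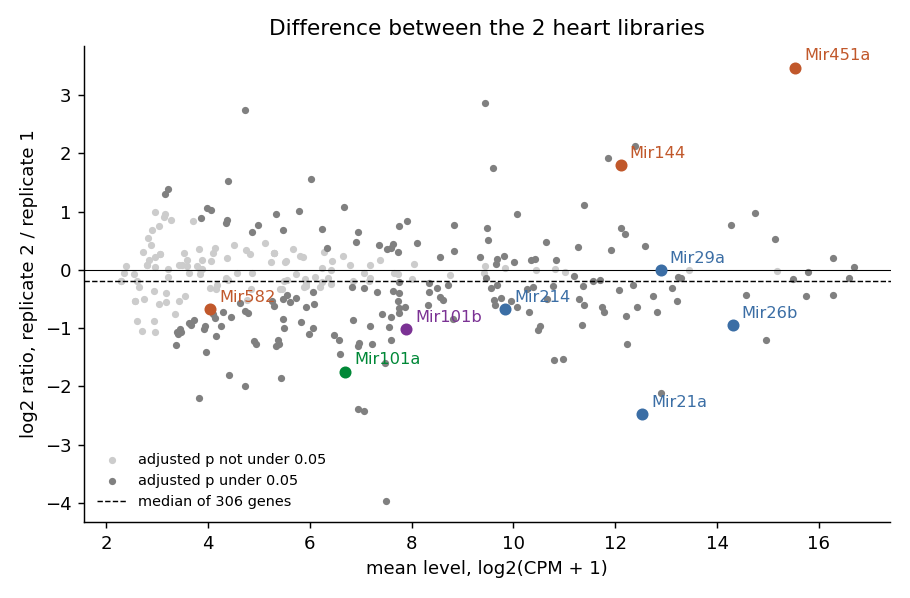
Each point is 1 of the 306 detected microRNA genes, with its mean level as log2(CPM + 1) on the horizontal axis and its log2 ratio of replicate 2 over replicate 1 on the vertical axis; dark points had an adjusted p under 0.05 in the binomial test and the dashed line is the median. Mir101a at -1.74 and Mir101b at -1.01 lie below the median of -0.19, while Mir144 and Mir451a, both of red cells, lie above it.

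Scaling changed the size of these folds and not their direction. The median gene moved to a log2 ratio of 0.03 with TMM factors and to 0 with DESeq2 size factors. Relative to those, Mir101a was lower in replicate 2 by 2.88-fold with TMM factors and 2.93-fold with DESeq2 factors, and Mir101b by 1.73-fold and 1.77-fold. Both genes still passed the test and 1.5-fold under either. With either factor set the split of genes that passed at 1.5-fold was 52 higher and 46 lower (TMM) or 48 higher and 49 lower (DESeq2), in place of 34 higher and 78 lower.

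**Figure D4:**
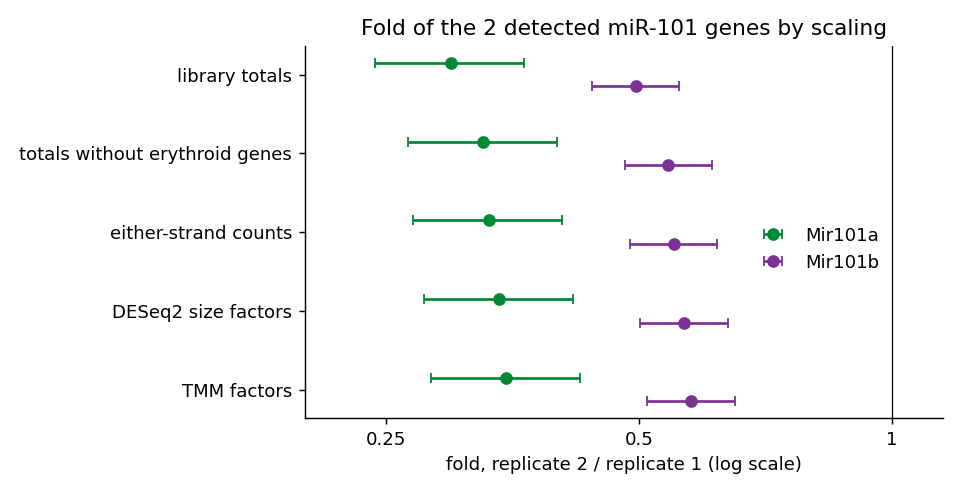
Fold of replicate 2 over replicate 1 (log scale) for Mir101a and Mir101b with 95% exact intervals, under library totals and 4 alternatives; the line at 1 marks no difference. All intervals lie below 1. Each alternative multiplies the folds of both genes by the same factor, so Mir101a lies below Mir101b in every row by construction.

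The balance between the genes shifted as well. In replicate 2 there were 3.33 counts of Mir101b for each count of Mir101a, with an exact interval of 2.73 to 4.08. Replicate 1 had 2.01, with an interval of 1.77 to 2.27, and the geometric mean was 2.58. The ratio was 1.66-fold higher in replicate 2 (interval 1.31 to 2.11; two-sided Fisher's exact test on the counts of both libraries, 1 test, p = 1.5e-05). A ratio within a library does not depend on the scaling, but reads lying wholly within the shared 20 bases map to both genes and so entered neither count. Reads lying within the 19 bases that Mir101a shares with Mir101c were left out of the Mir101a count. Mir101b shares at most 14 bases with Mir101c, so this loss can raise the ratio. Its size in each library was not tested.

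Markers of several cell types also differed between the libraries, and their counts stand beside 41.5% of all 306 genes lower and 19.6% higher in replicate 2. The fibroblast list, with 4 of 6 genes detected, summed to 2594 CPM in replicate 2, against 11329 CPM in replicate 1. Of the 4 detected genes 3 were lower in replicate 2, and no gene of the list was at 0 in both libraries. Most of the sum in each library was Mir21a, with 1810 CPM in replicate 2 and 10018 CPM in replicate 1. Mir214 had 701 CPM in replicate 2 and 1121 CPM in replicate 1, and Mir152 had 70.0 and 174 CPM. Mir199a-1, Mir199a-2 and Mir199b had at most 30 counts in a library. Each shares an exact stretch with the others, and reads lying within it could be given to none of them. The erythroid list, all 3 genes higher in replicate 2, summed to 95604 CPM there and 11488 CPM in replicate 1. It was led by Mir451a, the red cell microRNA, with 86827 CPM in replicate 2 against 7816 CPM in replicate 1. Its genes differed in size of change, and Mir486 was higher by only 1.12-fold (1919 CPM in replicate 2, 1710 CPM in replicate 1). Mir486 shares 20 exact bases with Mir3107, so its level is uncertain. The leukocyte list, with 5 of 6 genes detected and Mir142b at 0, summed to 5193 CPM in replicate 2 and 7064 CPM in replicate 1, with 4 genes lower; under TMM factors 4 were lower and 1 higher, beside 84 lower and 97 higher of all 306 genes, and under DESeq2 factors likewise 4 and 1, beside 88 lower and 94 higher. Of the cardiac muscle list 1 gene was higher and 2 were lower in replicate 2, and its sum was 8546 CPM in replicate 2 and 5980 CPM in replicate 1. With the 3 erythroid genes taken out of the library totals, an alternative chosen after seeing the data, Mir101a was lower in replicate 2 by 3.06-fold and Mir101b by 1.84-fold. The part of the fibroblast, leukocyte and muscle lists in the difference was not tested.

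MicroRNAs that share a described role with miR-101 were read from 2 lists. Of 12 genes reported to restrain cardiac fibrosis 9 were detected, of which 6 were lower and 2 higher in replicate 2 and 1 did not pass the binomial test, beside 41.5% lower and 19.6% higher over all 306 genes. With TMM or DESeq2 factors 3 were lower and 3 higher, beside 84 lower and 97 higher of all 306 genes with TMM and 88 lower and 94 higher with DESeq2 factors. Their median log2 ratio was -0.48, beside -0.19 over all 306 genes. The most abundant was Mir29a, which represses collagen genes, with 7600 CPM in replicate 2 against 7591 CPM in replicate 1, the gene that did not pass (adjusted p = 0.95). Mir29c of the same family had 716 CPM in replicate 2 and 1001 CPM in replicate 1 and was lower by 1.40-fold (adjusted p = 5.9e-28). All detected genes of this list other than Mir29a share at least 20 exact bases with another hairpin. Reads lying within such a stretch entered no gene's count, so the levels and calls of these genes are uncertain. The share of reads lost was not tested and can exceed that for Mir101a and Mir101b.

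Of 9 genes reported to act on Ezh2 besides miR-101, 5 were detected, and 3 were lower in replicate 2, none higher, and 2 did not pass, beside 41.5% lower and 19.6% higher over all 306 genes. With TMM factors 3 were lower and 1 was higher, and with DESeq2 factors 3 were lower and none higher; the counts over all genes are those given for the fibrosis list. Their median log2 ratio was -0.68. Mir26b, with 13830 CPM in replicate 2 against 26745 CPM in replicate 1, was lower by 1.93-fold, and Mir214, which also belongs to the fibroblast list, was lower by 1.60-fold (701 CPM in replicate 2, 1121 CPM in replicate 1). Both genes exceeded Mir101b in each library. The third lower gene was Mir26a-2, with 60 counts in replicate 2 and 817 in replicate 1, lower by 15.6-fold. Mir26a-2, Mir138-1 and Mir138-2, all detected, each share 20 exact bases with another copy, so their levels and calls are uncertain. The Mir124a genes had 0 counts, and each shares 20 bases with the other copies. The Mir26a genes stand in both lists, so the lists are not separate observations.

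Genes whose levels were most like those of a member were found by distance in log2(CPM + 1) over both libraries, a measure that rests on 2 points. For Mir101a the nearest were Mir203 (51.3 CPM in replicate 2, 139 CPM in replicate 1, distance 0.22), Mir148b (56.7 and 131 CPM, 0.37) and Mir547 (55.6 and 121 CPM, 0.45). For Mir101b they were Mir206 (161 and 268 CPM, 0.24), Mir16-2 (183 and 283 CPM, 0.28) and Mir186 (166 and 262 CPM, 0.28). Mir16-2 shares 20 exact bases with Mir16-1, so its level is uncertain. All 6 were lower in replicate 2, a direction fixed by how they were chosen, as each lies close to a member lower there. They also passed the binomial test, as did 41.5% of all 306 genes in that direction. Neither is a separate observation.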

How the data were processed

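Small RNA under 30 bases from 2 heart libraries was sequenced, and the submitters deposited raw read counts per microRNA gene, with no normalization; the build is mm10 per the labels and the annotation GENCODE M21 per the text deposited beside the tables. For the aligner, the counter and the read trimming, names and settings were not given in the sources used here. Tables have no header, and their 3 columns, recognised from the values, are either-strand, own-strand and opposite-strand counts. The either-strand column is not the sum of the other columns. Over all genes it held 1963878 counts in replicate 2 and 1906012 in replicate 1, fewer than the own-strand 2770301 and 2424441. Some abundant genes are missing from it, and 0 genes of the endothelial list were detected there. As an alternative it thus also changes which genes make up the total. The 4 leading lines name no gene, held 65.3% of the own-strand column of replicate 2 and 70.0% of replicate 1, and stayed out of totals and tests. Reads carry no molecular identifiers, so intervals and limits cover counting error only.

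All 2202 identifiers matched M21, and all 3 members matched RefSeq sequences. Members, lists and tests were chosen with earlier results of these data known. Named genes were the members, genes sharing bases 2 to 7 of a mature member, the 3 nearest genes to each detected member, and the 2 most abundant genes of lists used. With a single group of 2 libraries no model leaves residual degrees of freedom for a contrast, so exact binomial tests across all detected genes were used, with a threshold of 0.05. The code was checked on simulated counts holding counting error alone, which says nothing of the spread between libraries. The libraries were not copies (chi-square 510 per degree of freedom). Shared stretches were sought among annotated hairpins, not genome-wide. Alternatives were the either-strand column, other filters, denominators and scalings, thinning, and each library alone. Python 3.11.15, scipy 1.17.1, R 4.3.3, edgeR 4.0.16, DESeq2 1.42.0 (factors only) and RNAfold 2.7.2 were used.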

Additional observations from a re-analysis of the deposited data

Results flagged for a closer look

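Reads that mapped to several places numbered 3410568 in replicate 2 and 3992614 in replicate 1, far above the 3 counts that a count of 0 allows, and no comparison used them. How many came from the sequence common to Mir101a and Mir101c was not tested.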

How the results depend on the processing

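Under all 8 alternatives run for the difference between the libraries, Mir101a and Mir101b were lower in replicate 2 and passed the binomial test, with log2 ratios from -1.74 to -1.53 (largest adjusted p 5.9e-28) and from -1.02 to -0.79 (largest adjusted p 5.8e-20). The settings that change only the filter on counts cannot alter a gene's fold. They bear on the adjustment of its p-value alone and are no separate check of the difference. Mir101c had no count, so its fold could not be computed under any setting. The number of genes that passed stayed within 1.5 times of 187 under all 8 settings, but their share and direction did not hold. The share ran from 26.8% of 682 genes with no filter to 74.2% of 213 genes with at least 50 counts. The main setting had 127 lower and 60 higher in replicate 2, and TMM factors gave 84 lower and 97 higher. Levels moved with the denominator: with the 10 most abundant genes left out of the total, Mir101a stood at 276 CPM, Mir101b at 646 CPM and the family at 0.0922%. With all reads of a library as denominator, Mir101a stood at 31.7 CPM, Mir101b at 74.4 CPM and the family at 0.0106%. With 1 library left out, the level of Mir101a ran from 46.9 to 157 CPM, that of Mir101b from 156 to 315 CPM, the family share from 0.0203% to 0.0472% and the ratio of Mir101b to Mir101a from 2.01 to 3.33. Without replicate 1 the levels of Mir101a and Mir101b and the family share were lower than the mean by over 1.5 times, and without replicate 2 that of Mir101a was higher by over 1.5 times. No paired analysis was possible because there is a single group. At this depth 10 counts correspond to 3.61 CPM in replicate 2 and 4.12 CPM in replicate 1.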

Other observations

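Other cell type lists, read for the same libraries, gave these values. The endothelial list, of which Mir126a was detected and Mir126b had 2 counts in each library, summed to 85270 CPM in replicate 2 and to 73654 CPM in replicate 1. For smooth muscle and pericytes (Mir143 and Mir145a) the sums were 44521 CPM in replicate 2, against 50667 CPM in replicate 1. The liver microRNA Mir122 had 17.3 CPM in replicate 2, against 40.4 CPM in replicate 1. The epithelial list, with 4 of 5 genes detected, summed to 317 CPM in replicate 2, against 199 CPM in replicate 1. The part of these lists in the difference of the miR-101 genes was not tested.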
